A study of Mus musculus with 14 samples.

Results

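The genes described here encode proteins of the mitochondrial respiratory chain and of the tricarboxylic acid (TCA) cycle that are made from nuclear DNA. They are 39 genes in all, taken by symbol: 10 subunits of complex I, the 4 subunits of complex II, 5 genes of complex III and cytochrome *c*, 5 of complex IV and its heme A synthesis, 3 of ATP synthase, 10 of the TCA cycle, and the regulators *Ppargc1a* and *Tfam*. Of these, 37 had a value and 36 passed the filter of a mean of at least 0.1 FPKM (fragments per kilobase of transcript, scaled to all mapped fragments) in both experiments. *Ndufb8* and *Cox4i1* were not analysed here, and *Ppargc1a* fell below the filter.

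The respiratory chain passes electrons from NADH, at complex I, and from succinate, at complex II, through ubiquinone to complex III, cytochrome *c*, and complex IV, where oxygen is reduced. The proton gradient built on the way drives ATP synthase. The TCA cycle oxidizes acetyl groups in the mitochondrial matrix and supplies NADH and succinate to the chain. Most subunits are encoded in the nucleus and imported, while a small set of core subunits is encoded by mitochondrial DNA, so the complexes draw on both genomes. Activated T cells enlarge their mitochondria and run the cycle partly to supply citrate, aspartate, and other building blocks for growth.

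All samples were activated CD4+ T cells of C57BL/6 mice. Per the study's methods, naive CD4+ T cells were sorted from the spleen and lymph nodes of mice 6 to 12 weeks old, both sexes being used. They were cultured for 3 days with anti-CD3, anti-CD28, and IL-2 under nonpolarizing conditions, after which viable cells were sorted. In the first experiment 4 HDAC1cKO-HDAC2HET samples (HDAC1f/f HDAC2f/+ x CD4cre in the labels) were compared with 4 WT samples. A Cre that is active in T cells from the CD4-expressing thymocyte stage on deletes *Hdac1* fully in these cells and leaves 1 copy of *Hdac2*. In the second experiment 3 HDAC1cKO samples (HDAC1f/f x CD4cre), in which only *Hdac1* is deleted, were compared with 3 WT samples, and all 6 were restimulated with anti-CD3 for 12 hours after the culture. The study refers to an earlier one for the second experiment and gives its culture as 3 days of anti-CD3 and anti-CD28 before that restimulation. Whether IL-2, the sort of viable cells, and the ages and sexes above apply to it the study does not state. Genotype, restimulation, and any other difference between the experiments therefore go together, and their parts cannot be told apart. The 4 samples of a group of the first experiment were described as independent cell batches prepared on 1 day. For the second the sources used here do not say whether the samples came from separate mice, and p-values then measure the spread between these samples only.

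*Hdac1* ranged from 76.3 to 79.6 FPKM in WT and from 6.65 to 10.7 FPKM in HDAC1cKO-HDAC2HET samples, and from 72.3 to 81.1 and 8.52 to 12.1 FPKM in the second experiment. *Hdac2* ranged from 58.2 to 60.3 FPKM in WT and from 34.0 to 37.0 FPKM in HDAC1cKO-HDAC2HET samples, whereas the HDAC1cKO samples lay between 74.8 and 88.1 FPKM against 62.4 to 78.2 in their WT. Both genes followed the labels in every library. The 7 T cell markers summed to 1545 to 1645 FPKM in WT and 1585 to 1626 FPKM in HDAC1cKO-HDAC2HET samples, but each of them had groups that did not overlap. *Cd3d* (151 to 175 FPKM in WT, 102 to 108 FPKM in the mutant), *Cd3e* (187 to 212 and 133 to 139), *Cd3g* (226 to 263 and 212 to 221), *Cd4* (208 to 218 and 160 to 168), and *Lck* (276 to 289 and 216 to 227) were lower in the mutant, and *Thy1* (165 to 206 and 335 to 365) and *Cd2* (272 to 314 and 398 to 423) were higher. The 2 CD8 T cell markers summed to 3.28 to 5.96 and 11.7 to 15.2 FPKM, nearly all of it *Cd8b1*, and the 4 B cell markers to 0.497 to 0.945 and 2.78 to 4.38 FPKM. No NK cell, macrophage, dendritic cell, neutrophil, or erythroid marker exceeded 1 FPKM in any library in which it had a value. The NK cell marker *Klrb1c* had no value in the first experiment, which leaves *Ncr1* there. The part of these shifts in the results was not tested, and in bulk samples fewer cells of a type and less RNA per cell cannot be told apart. Library depth, estimated from the deposited confidence bounds, was 25000000 to 59300000 fragments, and apart from *Ogdhl* and *Ppargc1a* the 95% bounds of a member's value lay within 0.639% to 9.50% of it. Exons of *Atp5a1*, *Cox10*, *Cox15*, *Cox5a*, *Mdh1*, *Ndufa9*, *Ndufs1*, *Ndufs3*, and *Uqcrc2* overlap a gene on the other strand, and whether the values were counted by strand is not given in the sources used here.

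In HDAC1cKO-HDAC2HET cells most of the tested members, which are a part of the nuclear-encoded respiratory chain and TCA cycle genes, rose by a modest amount. Of 36 tested, 25 (69.4%) rose, 3 (8.33%) fell, and 8 did not pass the test (limma, Benjamini-Hochberg adjusted p of at most 0.05). Over all 15141 genes tested, 24.2% rose and 27.6% fell. Since 35 of the tested members had a mean of at least 10 FPKM, the share among the 6424 genes above that level is the closer background, where 33.6% rose and 29.4% fell. The members were chosen with earlier results of these data known, and the part of that choice in these shares was not tested. The median log2 fold change of the members was 0.24, against -0.04 over all genes. The largest rises were those of *Idh2* and *Cs* of the TCA cycle, with ratios of the mean FPKM of 1.95 and 1.90, and of *Uqcrfs1* and *Cyc1* of complex III, with ratios of 1.496 and 1.48, and the genes that fell were *Sdha*, *Ogdhl*, and *Tfam*. The exact permutation p of every gene called was 0.0286, the smallest that 4 against 4 samples can give.

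**Figure D1:**
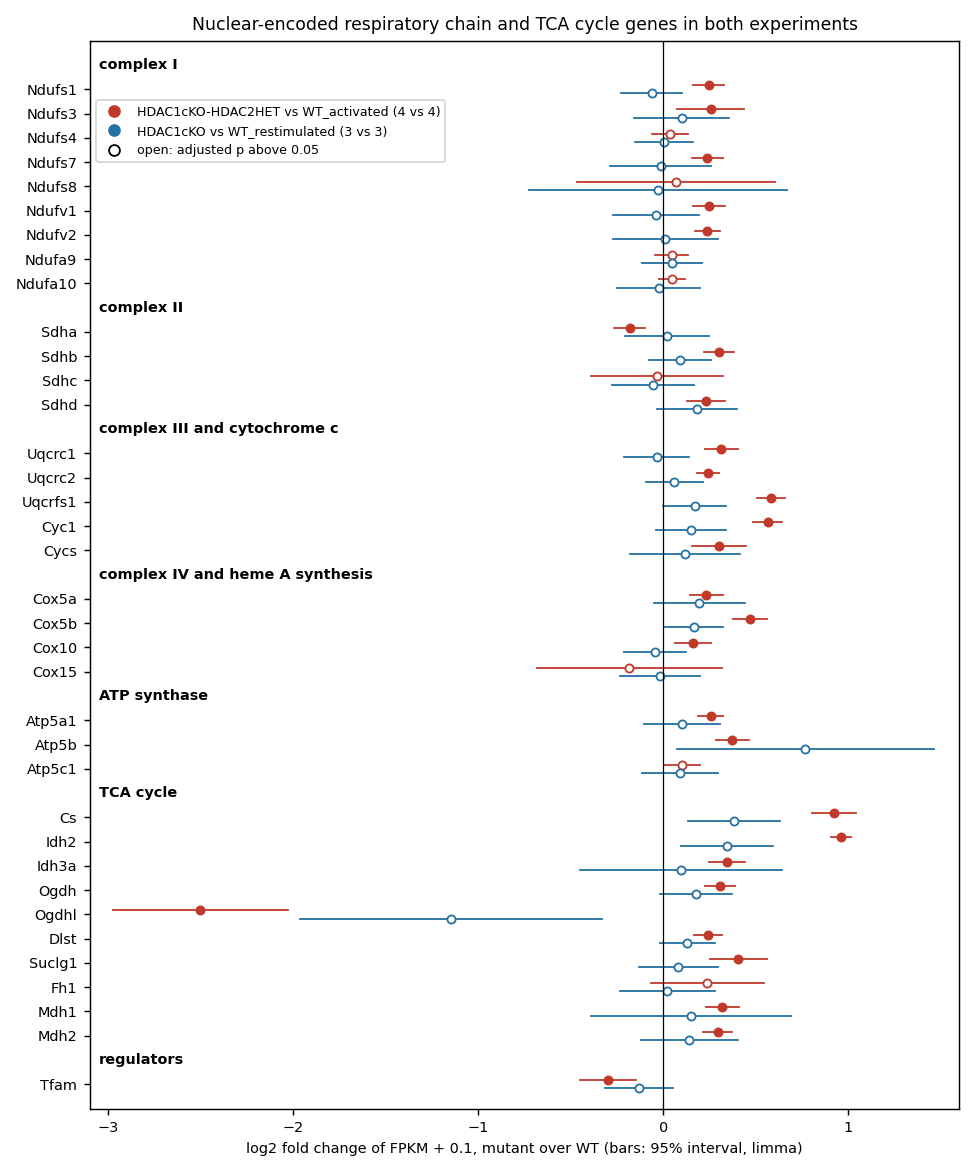
Log2 fold change of FPKM + 0.1, mutant over WT, for each of the 36 genes tested, grouped by complex; bars are 95% intervals of the limma fit, red is HDAC1cKO-HDAC2HET (4 vs 4), blue is HDAC1cKO (3 vs 3), and open points did not pass an adjusted p of 0.05. Of the red points 25 are filled and right of 0 and 3 are filled and left of it, while no blue point is filled.

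*Cs* and *Idh2* had the largest rises among the members. *Cs*, citrate synthase, joins acetyl-CoA to oxaloacetate in the first step of the cycle and lies at chr10:128337734-128362479 on the plus strand (mm10). It was at 86.4, 90.2, 85.8, and 86.5 FPKM in WT and 183.8, 161.2, 157.5, and 160.1 FPKM in HDAC1cKO-HDAC2HET samples, a log2 fold change of 0.92 ± 0.05 (SE, adjusted p = 6.5e-06, limma). The groups did not overlap, and the highest mutant value, in replicate 1, came from a slightly longer assembled locus than the other 3. *Idh2*, the mitochondrial NADP-dependent isocitrate dehydrogenase, lies at chr7:80094846-80115392 on the minus strand. It was at 29.3, 29.4, 29.4, and 28.8 FPKM in WT and at 57.7, 57.7, 56.0, and 56.4 FPKM in HDAC1cKO-HDAC2HET samples. Its log2 fold change of 0.96 ± 0.02 (SE, adjusted p = 2.37e-07, limma) was the most precise of the module, the SD being 0.298 FPKM in WT and 0.863 FPKM in the mutant (n = 4).

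The promoters of the 6 genes with the largest changes in either direction that have an entry in the RefSeq promoter table (GRCm38.p6) are shown to set the largest rises beside the largest fall. *Cyc1* has no entry. Each line is the 120 bases that end just before the gene's annotated start, 5′ to 3′ on the gene's strand, with CG pairs in capitals. The *Cs* line ends before its RefSeq start, which lies a few bases ahead of the annotated one.

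*Ogdhl*, chr14:32321899-32322018, plus: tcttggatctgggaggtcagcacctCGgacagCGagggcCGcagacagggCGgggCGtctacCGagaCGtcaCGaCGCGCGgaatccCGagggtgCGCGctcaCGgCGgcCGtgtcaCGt

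*Idh2*, chr7:80115393-80115512, minus: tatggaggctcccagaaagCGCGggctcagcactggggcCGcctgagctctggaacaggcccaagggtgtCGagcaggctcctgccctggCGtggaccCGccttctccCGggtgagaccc

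*Cs*, chr10:128337607-128337726, plus: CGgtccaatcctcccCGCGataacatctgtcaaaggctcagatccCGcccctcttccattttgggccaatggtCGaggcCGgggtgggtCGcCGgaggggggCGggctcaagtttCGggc

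*Uqcrfs1*, chr13:30545363-30545482, minus: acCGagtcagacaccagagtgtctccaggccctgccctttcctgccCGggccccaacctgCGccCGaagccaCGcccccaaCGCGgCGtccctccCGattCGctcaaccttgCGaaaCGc

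*Cox5b*, chr1:36691329-36691448, plus: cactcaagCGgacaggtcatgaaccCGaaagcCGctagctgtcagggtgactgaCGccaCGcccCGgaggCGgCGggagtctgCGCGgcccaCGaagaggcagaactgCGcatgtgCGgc

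*Suclg1*, chr6:73248262-73248381, plus: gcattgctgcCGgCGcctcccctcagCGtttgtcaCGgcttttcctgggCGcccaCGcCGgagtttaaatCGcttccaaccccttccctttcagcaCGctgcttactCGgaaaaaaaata

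All 6 are rich in CG pairs, the gene that fell most (*Ogdhl*) as well as those that rose. In the full 250-base windows before the RefSeq starts, GC content was 64.4% for *Ogdhl*, 67.2% for *Idh2*, 55.2% for *Cs*, 62.4% for *Uqcrfs1* and *Cox5b*, and 53.2% for *Suclg1*, against a median of 52.4% over 32851 windows of that length. Their 13 to 23 CG pairs compare with a median of 6. Letters of 4 motifs known from promoters of respiratory genes were searched on both strands in these windows: GCGCATGCG (NRF1), CCGGAAGT (ETS/GABP), AAGATGGCG (YY1), and TCAAGGTCA (ERR). None of the 6 windows held any of them. Among the 32 members with a window, the NRF1 letters were found in *Cycs* and *Ogdh* (1.45% of all windows hold them), the ETS/GABP letters in *Cox10* and *Tfam* (2.88% of all windows), and the YY1 and ERR letters in no member (0.606% and 0.387% of all windows). The matches lie before RefSeq starts, and those of *Ogdh* and *Tfam* fall inside the annotated span of the gene. The 30 bases around 4 of these matches, on the gene's strand and with the match in capitals, are as follows. *Cox10*, which rose, and *Tfam*, which fell, both hold the ETS/GABP letters, and a link of the letters to the changes was not tested.

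*Cycs*, chr6:50566611-50566640, minus, match on the reverse strand: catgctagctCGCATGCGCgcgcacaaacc

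*Ogdh*, chr11:6292533-6292562, plus: taggtgttgtGCGCATGCGtaactcaactt

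*Cox10*, chr11:64079481-64079510, minus: agcgctgggagCCGGAAGTgacaagaggaa

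*Tfam*, chr10:71238073-71238102, minus: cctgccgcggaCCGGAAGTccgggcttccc

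Complex I, which oxidizes NADH, had 9 genes tested, of which 5 rose, none fell, and 4 did not pass the test, with a median log2 fold change of 0.24. All 5 that rose encode core subunits of the arm that projects into the matrix. *Ndufv1*, which carries the flavin that accepts electrons from NADH, was at 76.2, 81.5, 76.7, and 81.0 FPKM in WT and 89.3, 94.8, 93.4, and 96.9 FPKM in HDAC1cKO-HDAC2HET samples, a log2 fold change of 0.25 ± 0.04 (SE, adjusted p = 0.000774, limma). The groups did not overlap. *Ndufv2* (0.24, adjusted p = 0.000269), *Ndufs1* (0.24, adjusted p = 0.000778), and *Ndufs7* (0.24, adjusted p = 0.000903), all iron-sulfur subunits of that arm, rose by almost the same log2 amount, from means of 87.3, 40.8, and 123 FPKM in WT. The rise of *Ndufs3* (48.7 ± 1.07 to 58.5 ± 7.22 FPKM, SD, n = 4, adjusted p = 0.0271) was the least secure. Its replicate 4 stood at 69.2 FPKM among mutant samples that were otherwise between 54.0 and 56.1, and the adjusted p was 0.0621, 0.0519, and 0.0646 without WT replicate 1, 3, or 4. *Ndufs4*, *Ndufa9*, and *Ndufa10* had log2 fold changes of 0.04, 0.05, and 0.05 with upper 95% limits of 0.13, 0.14, and 0.12. *Ndufs8* could not be judged at this spread, since WT replicate 2 and mutant replicate 1 were at 154.6 and 142.9 FPKM while the other samples lay between 83.3 and 96.4.

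Complex II, the succinate dehydrogenase shared by the cycle and the chain, was split. *Sdhb*, its iron-sulfur subunit, was at 90.8, 98.3, 95.9, and 97.7 FPKM in WT and 114.3, 122.7, 116.4, and 118.3 FPKM in HDAC1cKO-HDAC2HET samples, a log2 fold change of 0.30 ± 0.04 (SE, adjusted p = 0.000222, limma). *Sdha*, the flavoprotein subunit that oxidizes succinate, was at 102.8, 105.6, 102.5, and 112.5 FPKM in WT and 92.5, 95.3, 90.9, and 94.2 FPKM in the mutant, and it fell by 0.18 on the log2 scale (SE 0.04, adjusted p = 0.00339, limma). Both pairs of groups stood apart, in opposite directions. *Sdhd*, a membrane anchor of the complex, rose from 119 ± 2.48 to 140 ± 8.10 FPKM (SD, n = 4, adjusted p = 0.00274). The other anchor, *Sdhc*, had a log2 fold change of -0.04 (adjusted p = 0.869) that rested on WT replicate 4, at 109.2 FPKM among WT values otherwise between 66.0 and 70.1. Without that sample the fold change was 0.13 (adjusted p = 0.0210).

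Complex III, which hands electrons from ubiquinol to cytochrome *c*, is grouped here with cytochrome *c*. This was the only group in which every member tested rose, 5 of 5, with a median log2 fold change of 0.31. *Uqcrfs1*, the Rieske iron-sulfur protein, was at 103.0, 96.6, 98.3, and 98.4 FPKM in WT and 147.0, 146.0, 145.0, and 154.9 FPKM in HDAC1cKO-HDAC2HET samples, a log2 fold change of 0.58 ± 0.03 (SE, adjusted p = 6.24e-06, limma). It was listed by name in every library of both experiments, so no matching of loci entered its value. *Cyc1*, the cytochrome *c*1 subunit that reduces cytochrome *c*, was at 154.3, 156.4, 150.3, and 145.3 FPKM in WT and 215.7, 224.9, 223.0, and 232.5 FPKM in the mutant, a log2 fold change of 0.56 ± 0.03 (SE, adjusted p = 9.71e-06, limma). *Uqcrfs1* and *Cyc1* rose more than the core proteins *Uqcrc1* (141 to 176 FPKM, log2 fold change 0.31, 95% interval 0.22 to 0.40) and *Uqcrc2* (103 to 121 FPKM, 0.24, 0.18 to 0.30), whose intervals lay below theirs. *Cycs*, cytochrome *c* itself, rose from 14.4 ± 0.723 to 17.7 ± 1.32 FPKM (SD, n = 4, adjusted p = 0.0045).

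**Figure D2:**
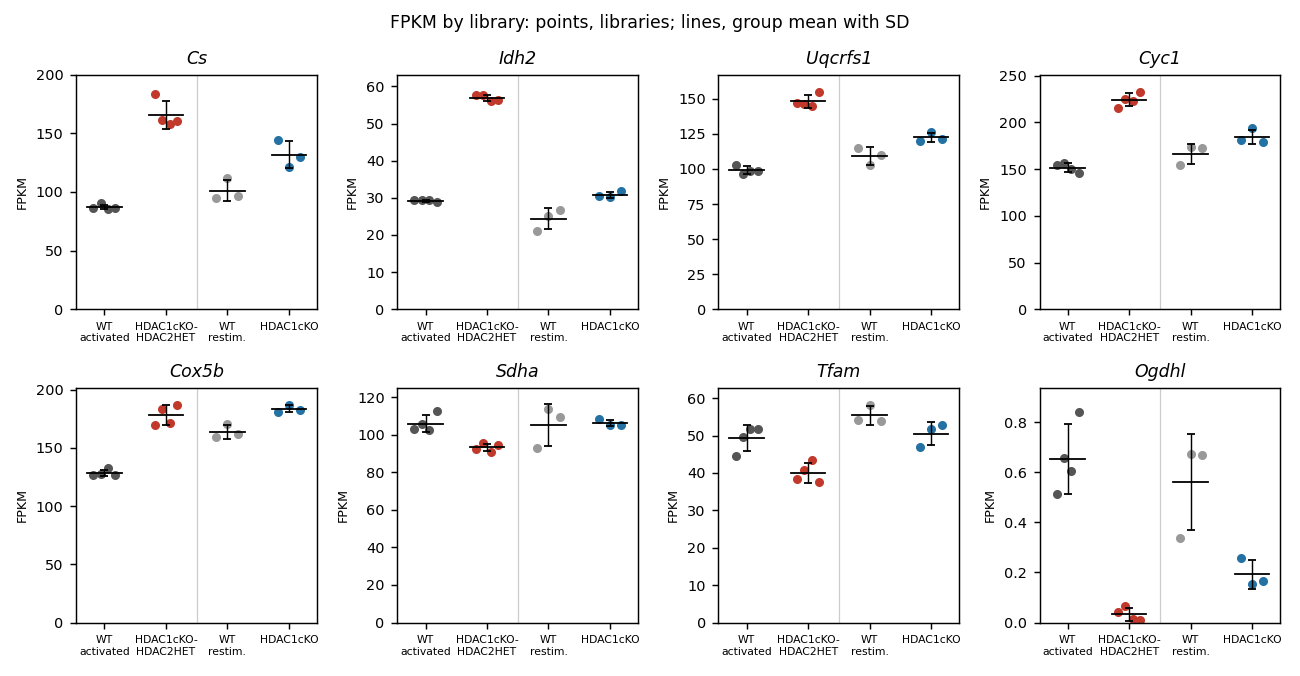
FPKM per library for 8 genes; points are libraries, lines the group mean with SD, and the grey line separates the experiments, whose levels are not compared. *Cs*, *Idh2*, *Uqcrfs1*, *Cyc1*, and *Cox5b* are higher in all 4 HDAC1cKO-HDAC2HET samples than in any WT sample of that experiment, and *Sdha*, *Tfam*, and *Ogdhl* are lower.

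Complex IV, cytochrome *c* oxidase, had 4 genes tested, of which 3 rose. *Cox5b*, a nuclear-encoded subunit on the matrix side, was at 126.6, 127.9, 132.6, and 127.1 FPKM in WT and 169.5, 183.5, 171.6, and 186.9 FPKM in HDAC1cKO-HDAC2HET samples, a log2 fold change of 0.47 ± 0.04 (SE, adjusted p = 3.98e-05, limma). *Cox5a* rose from 224 ± 9.77 to 262 ± 7.39 FPKM (adjusted p = 0.00145) and *Cox10*, which makes the heme O precursor of heme A, from 14.9 ± 0.660 to 16.6 ± 0.565 FPKM (SD, n = 4, adjusted p = 0.0149). *Cox15*, the next enzyme of heme A synthesis, did not pass the test, with 19.6 FPKM in WT replicate 4 and 9.64 to 11.05 FPKM in the other 7 samples.

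Of the ATP synthase genes, all in the soluble part that holds the catalytic sites, *Atp5b* and *Atp5a1* rose. *Atp5b*, the catalytic beta subunit and the most abundant member, was at 843.7, 862.5, 817.3, and 839.4 FPKM in WT and 1042, 1103, 1082, and 1130 FPKM in HDAC1cKO-HDAC2HET samples, a log2 fold change of 0.37 ± 0.04 (SE, adjusted p = 0.000107, limma). *Atp5a1*, the alpha subunit, rose from 473 ± 6.72 to 565 ± 14.2 FPKM (SD, n = 4, adjusted p = 0.000216). The gamma subunit *Atp5c1* had a log2 fold change of 0.10 (95% interval 0.00160 to 0.198, adjusted p = 0.0841).

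Of the 10 TCA cycle genes 8 rose and *Ogdhl* fell, with a median log2 fold change of 0.31. Besides *Cs* and *Idh2* the genes that rose covered the following steps: *Idh3a*, of the NAD-dependent isocitrate dehydrogenase (48.8 to 62.0 FPKM, log2 fold change 0.34), *Ogdh* and *Dlst*, of the 2-oxoglutarate dehydrogenase complex (47.3 to 58.5 FPKM, 0.31, and 61.9 to 73.3 FPKM, 0.24), *Suclg1*, of succinyl-CoA ligase (71.9 to 95.04 FPKM, 0.41), and the malate dehydrogenases *Mdh1* of the cytosol and *Mdh2* of the matrix (96.7 to 121 FPKM, 0.32, and 282 to 346 FPKM, 0.29). Their adjusted p lay between 0.0002 and 0.00125. The WT and mutant samples of each of these 6 genes did not overlap, and the highest WT value of *Suclg1*, 82.3 FPKM in replicate 1, was still below its lowest mutant value of 90.4 FPKM. *Fh1*, fumarase, did not pass the test (adjusted p = 0.171). Its groups did not overlap, but mutant replicate 4 was at 72.8 FPKM among mutant values otherwise between 47.4 and 49.7, and without that sample the log2 fold change was 0.09 in place of 0.24.

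*Ogdhl*, a homolog of *Ogdh*, was the only one of these 10 cycle genes that fell. It was near the detection limit, at 0.513, 0.656, 0.605, and 0.843 FPKM in WT and 0.0420, 0.0649, 0.0136, and 0.0116 FPKM in HDAC1cKO-HDAC2HET samples. The groups were far apart, and *Ogdh* in the same WT samples was at 45.6 to 49.4 FPKM. The log2 fold change of FPKM + 0.1 was -2.51 ± 0.20 (SE, adjusted p = 3.56e-05, limma), and it was -0.68 with a pseudocount of 1 and -4.12 with one of 0.01, both also past the threshold. The 95% bounds of the single values ran to 18.2% of the value at best and 200% at worst.

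The regulators were *Tfam*, which packages mitochondrial DNA and is needed to transcribe it, and *Ppargc1a*, a coactivator of respiratory genes. *Tfam* was at 44.5, 49.5, 51.8, and 51.7 FPKM in WT and 38.3, 40.9, 43.5, and 37.5 FPKM in HDAC1cKO-HDAC2HET samples, and it fell by 0.30 on the log2 scale (SE 0.07, adjusted p = 0.00544, limma). It moved against most of the structural genes, and the groups did not overlap, though their nearest values were close. *Ppargc1a* was at 0.00901 to 0.0161 FPKM in WT and at 0 to 0.00354 FPKM in the mutant and was not tested.

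Genes of the same pathway outside the 39 moved both ways. Of 160 listed, the mitochondrially encoded ones included, 138 were tested, of which 53 (38.4%) rose and 34 (24.6%) fell, against 24.2% and 27.6% of all genes and 33.6% and 29.4% of those of at least 10 FPKM. Of the other complex I subunits 13 of 23 rose and 3 fell, of complex III 3 of 5 and none, of complex IV 5 of 13 and 1, of ATP synthase with its inhibitor 6 of 13 and 1, of the TCA cycle with pyruvate entry 11 of 24 and 8, of assembly factors 9 of 35 and 8, and of mitochondrial biogenesis regulators 6 of 17 and 7. Differences between these lists were not tested. The complex I subunit *Ndufb5* rose most of its list, from 35.8 to 82.6 FPKM (log2 fold change 1.20), ahead of *Ndufv3* (0.70), while *Ndufa2* (-0.27) and *Ndufa7* (-0.21) fell. In complex III the small subunit *Uqcrq* rose from 473 to 702 FPKM (0.57) and *Uqcr11* by 0.37 on the log2 scale. *Cox6b2* (1.19) and *Cox8a* (0.36) of complex IV rose and *Cox7b* (-0.36) fell, and in ATP synthase the inhibitor *Atpif1* (0.40) and the subunit *Atp5h* (0.37) rose and *Atp5g2* (-0.33) fell.

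At the entry of pyruvate and among the factors that build and regulate the chain, single genes moved further. *Pcx*, pyruvate carboxylase, which makes oxaloacetate for citrate synthase, was at 13.6, 11.7, 15.5, and 11.2 FPKM in WT and 3.16, 2.78, 2.504, and 2.52 FPKM in HDAC1cKO-HDAC2HET samples, and it fell by 2.199 on the log2 scale (SE 0.12, adjusted p = 6.04e-06, limma). *Pdk1*, a kinase that inhibits pyruvate dehydrogenase, fell by 0.35, and *Pdhx* of the pyruvate dehydrogenase complex and the cytosolic aconitase *Aco1* rose by 0.49 and 0.57. Among assembly factors, *Sco1*, which delivers copper to complex IV, rose from 8.27 to 16.4 FPKM (0.99), *Bcs1l*, which inserts the Rieske protein into complex III, from 6.75 to 11.1 FPKM (0.71), and the complex II factors *Sdhaf4* (10.9 to 5.12 FPKM, -1.08) and *Sdhaf1* (-0.35) fell. *Bcs1l* and its client *Uqcrfs1* were thus both higher in the mutant. *Esrra*, an orphan nuclear receptor that binds respiratory gene promoters, was at 10.6, 9.998, 10.6, and 11.2 FPKM in WT and 17.7, 22.2, 21.2, and 23.2 FPKM in the mutant (0.98 ± 0.09, SE, adjusted p = 5.12e-05, limma). *Ppargc1b*, a coactivator of that receptor, was at 1.84, 2.03, 1.74, and 1.604 FPKM in WT and 3.69, 3.47, 3.89, and 3.95 FPKM in the mutant (1.02 ± 0.08, SE, adjusted p = 3.91e-05, limma). Both were higher in every mutant sample than in any WT sample, whereas *Gabpb2*, a subunit of the ETS factor GABP, fell by 0.71 and *Twnk*, the mitochondrial DNA helicase, by 0.60 (10.04 to 6.61 FPKM, adjusted p = 0.000107).

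**Figure D3:**
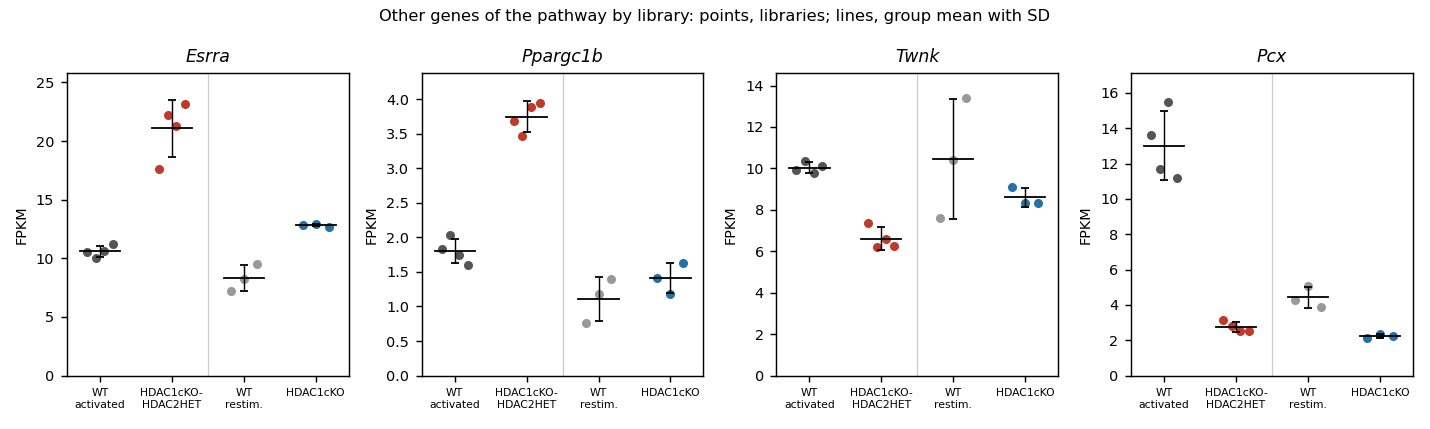
FPKM per library for *Esrra*, *Ppargc1b*, *Twnk*, and *Pcx*; points are libraries and lines the group mean with SD. In the first experiment *Esrra* and *Ppargc1b* are higher and *Twnk* and *Pcx* lower in all 4 HDAC1cKO-HDAC2HET samples, while in the second none of the 4 genes passed the test.

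Subunits encoded by mitochondrial DNA went the other way from most of the nuclear-encoded members tested. Of 13 such genes 8 were tested in the first experiment, and none rose and 6 (75%) fell (median log2 fold change -0.58). Over all genes tested 27.6% fell, and of those of at least 10 FPKM 29.4% did. No mitochondrially encoded gene could be tested with named rows only. *mt-Co1*, the core of complex IV, was at 1227, 1242, 1084, and 1331 FPKM in WT and 875, 789, 687, and 637 FPKM in HDAC1cKO-HDAC2HET samples, and it fell by 0.72 on the log2 scale (SE 0.11, adjusted p = 0.000921, limma). *mt-Cytb*, the cytochrome *b* of complex III, was at 1481, 1622, 1229, and 1676 FPKM in WT and 964, 959, 780, and 745 FPKM in the mutant, and it fell by 0.80 (SE 0.13, adjusted p = 0.00115, limma). The groups of both genes stood apart. *mt-Nd5* fell by 0.61, *mt-Nd6* by 0.59, *mt-Nd4* by 0.57, and *mt-Nd2* by 0.33, the last with overlapping groups and with a call that was lost when any of 5 single samples was left out, and *mt-Nd1* (-0.17, adjusted p = 0.296) and *mt-Nd3* (-0.33, adjusted p = 0.274) did not pass the test. The 7 of these genes other than *mt-Nd3* summed to 5819 to 7470 FPKM in WT and 4220 to 5451 FPKM in the mutant, while the 5 nuclear genes of complex III and cytochrome *c* summed to 501 to 515 and 660 to 709 FPKM. The ratio of the sums was 11.5 to 14.9 in WT and 5.95 to 8.26 in the mutant samples. The study's methods describe libraries of polyadenylated RNA. Mean values in WT samples were 3.31 FPKM for *mt-Nd3* and 0.224 FPKM for *mt-Co2* in the first experiment but 1820 and 2854 FPKM in the second. The cause of this gap was not tested, and mitochondrial values were compared within an experiment only.

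**Figure D4:**
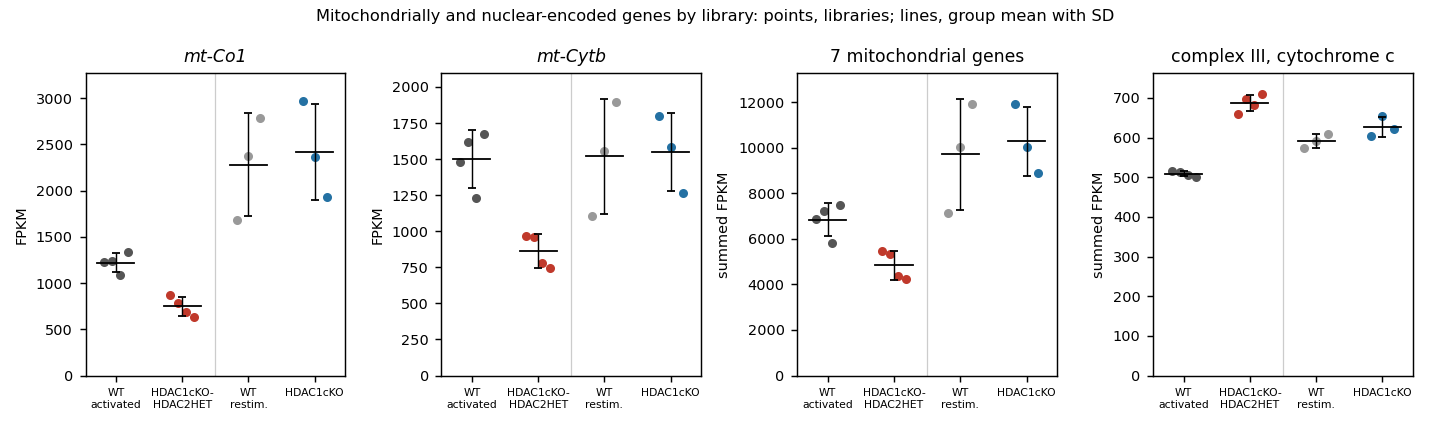
FPKM per library for *mt-Co1* and *mt-Cytb*, the summed FPKM of 7 mitochondrial genes, and that of the 5 nuclear genes of complex III and cytochrome *c*; points are libraries and lines the group mean with SD. In the first experiment the mitochondrial sum is 5819 to 7470 in WT and 4220 to 5451 in HDAC1cKO-HDAC2HET samples and the nuclear sum 501 to 515 and 660 to 709, and in the second the mitochondrial sums overlap.

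In restimulated HDAC1cKO cells, which keep both *Hdac2* alleles, no member passed the test, 0 of 36. The comparison as a whole made few calls, 0.0144% of 13933 genes higher and 0.0574% lower, and 3 against 3 samples cannot give an exact permutation p below 0.1. The median log2 fold change of the members was 0.08, against -0.03 over all genes. At an unadjusted p under 0.05 (limma), 4 members were higher (*Cs*, *Idh2*, *Cox5b*, and *Atp5b*) and *Ogdhl* was lower, where 6.57% and 7.77% of all genes were. In a fit of both experiments with 1 spread from all 14 samples, 6 members passed, *Atp5b*, *Cox5b*, *Cs*, *Idh2*, and *Uqcrfs1* higher and *Ogdhl* lower, where 4.51% of all genes were called higher and 5.12% lower. The groups did not overlap for 9 members with higher values in the mutant (*Sdhd*, *Uqcrfs1*, *Cyc1*, *Cox5b*, *Atp5b*, *Cs*, *Idh2*, *Ogdh*, and *Dlst*) and for *Ogdhl* and *Tfam* with lower ones, against 9.97% and 12.3% of all genes.

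*Cs* was at 95.1, 111.6, and 96.7 FPKM in restimulated WT and 144.3, 121.0, and 129.9 FPKM in HDAC1cKO samples (log2 fold change 0.38, 95% interval 0.14 to 0.63, adjusted p = 0.219, limma). *Idh2* was at 21.2, 25.2, and 26.6 FPKM in WT and 30.5, 30.1, and 31.8 FPKM in the mutant (0.35, 0.10 to 0.59, adjusted p = 0.245, limma). *Ogdhl* was at 0.339, 0.673, and 0.671 FPKM in WT and 0.257, 0.153, and 0.166 FPKM in the mutant (-1.15, -1.97 to -0.33, adjusted p = 0.244, limma). The values of these 3 genes lay on the same side of WT as in the first experiment, but none of the 3 passed the test. *Uqcrfs1* was at 115.3, 102.5, and 109.7 FPKM in WT and 120.2, 126.1, and 121.2 FPKM in the mutant (0.17, -0.00394 to 0.34, adjusted p = 0.355), and *Cyc1* at 154.1, 173.1, and 172.2 and at 180.6, 193.4, and 179.2 FPKM (0.15, -0.04 to 0.34, adjusted p = 0.434). *Atp5b* had the largest positive value, from 962, 1030, and 1096 FPKM in WT to 2001, 2383, and 1123 FPKM in the mutant (0.77, 0.07 to 1.46, adjusted p = 0.318). That value rested on replicates 1 and 2 of the mutant, replicate 3 being close to the highest WT sample.

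The spread was wider than in the first experiment, with a median coefficient of variation over the members of 8.24% in restimulated WT and 5.34% in HDAC1cKO samples against 2.77% in WT and 3.63% in HDAC1cKO-HDAC2HET samples of the first. The complex I median was -0.01, and *Ndufs1* had a log2 fold change of -0.06 with a 95% interval of -0.23 to 0.10, which lies below its value of 0.24 in the first experiment. *Sdha* (0.02, adjusted p = 0.951) and *Tfam* (-0.13, adjusted p = 0.47), which fell in the first experiment, did not pass the test here. None of the 137 other genes of the pathway passed the test either (3 higher and 7 lower at an unadjusted p under 0.05), and of the mitochondrially encoded genes 0 of 9 did, with a median log2 fold change of 0.05. *Esrra* was at 7.25, 8.25, and 9.51 FPKM in WT and 12.9, 12.9, and 12.7 FPKM in the mutant, groups that did not overlap (log2 fold change 0.63, adjusted p = 0.160). *Pcx* was at 4.29, 5.08, and 3.90 FPKM in WT and 2.14, 2.36, and 2.22 FPKM in the mutant (-0.94, adjusted p = 0.133).

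The difference between the experiments was itself tested, as the log2 fold change in HDAC1cKO-HDAC2HET minus that in HDAC1cKO cells, over all 14 samples. It passed the threshold for 9 members, positive for 8 and negative for 1, where 7.41% and 6.61% of the 13950 genes tested did. In the group of complex III and cytochrome *c* these were 4 of 5 members, all of them complex III subunits. They were *Uqcrfs1* (0.41 ± 0.06, SE, adjusted p = 0.00152), *Cyc1* (0.41 ± 0.07, adjusted p = 0.00295), *Uqcrc1* (0.35 ± 0.07, adjusted p = 0.00659), and *Uqcrc2* (0.18 ± 0.05, adjusted p = 0.0340). The rest were *Idh2* (0.61 ± 0.09, adjusted p = 0.000977) and *Cs* (0.54 ± 0.11, adjusted p = 0.00596) of the TCA cycle, *Cox5b* (0.30 ± 0.06, adjusted p = 0.00738), *Ndufs1* (0.31 ± 0.06, adjusted p = 0.00829), and *Ogdhl* (-1.36 ± 0.36, adjusted p = 0.0258), all by limma. The change was thus larger in the first experiment for each of the 9. *Sdhb*, *Ndufv1*, *Cox10*, and *Suclg1* were just outside, with adjusted p of 0.0502, 0.0558, 0.0597, and 0.0637. For *Sdha* (-0.20, 95% interval -0.39 to -0.01, adjusted p = 0.162) and *Tfam* (-0.17, -0.38 to 0.04, adjusted p = 0.297) no difference passed the threshold.

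The call for *Uqcrc2* was the least stable, being lost when any of 9 single samples was left out, and that for *Ogdhl* was lost without WT replicate 4 or HDAC1cKO-HDAC2HET replicate 4 of the first experiment or HDAC1cKO replicate 1 (adjusted p = 0.0508, 0.0501, and 0.0585). Without restimulated WT replicate 1, 15 members passed in place of 9, and without HDAC1cKO replicate 3 the difference for *Atp5b* passed as well (-0.71, adjusted p = 0.00197). Of the other pathway genes tested, 10 (7.41%) differed positively and 3 (2.22%) negatively among 135, no more than the 7.41% and 6.61% of all genes. Among these were *Ndufb5* (1.059, adjusted p = 0.000356), *Ndufv3* (0.53, adjusted p = 0.0191), *Pcx* (-1.26, adjusted p = 0.000977), and *Uqcrq* (0.56, adjusted p = 0.000891), by limma. Among mitochondrially encoded genes *mt-Nd6* differed (-0.78, adjusted p = 0.0314), and *mt-Cytb* and *mt-Co1* had adjusted p of 0.0528 and 0.0565.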

How the data were processed

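Per the study's methods, the authors mapped reads of poly(A)-selected, stranded libraries to the mouse genome mm10 with TopHat and estimated FPKM with Cufflinks. The submitters' processing notes name FastQC, STAR 2.5.2b, Subread 1.5.1, R 3.4, and edgeR instead. The deposited FPKM values, which account for transcript length and library size, were used, and no counts. Each library was assembled on its own, so a gene can lack a name in a file. Such a gene was taken from the locus that shared at least 0.8 of the joint span with its GENCODE vM21 locus (364 of 518 member values). Of the 36 tested members, 3 were named in all libraries of the first experiment and 1 in all of the second, and exons of 9 overlap a gene on the opposite strand. Levels were not compared between experiments.

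Depth was estimated from the Cufflinks bounds of low genes, 79.6% to 84.9% of which gave whole fragment numbers within 0.05. No 2 libraries shared over 3.14% of their values. In each experiment log2(FPKM + 0.1) of genes with a mean of at least 0.1 FPKM was tested by limma 3.58.1 (R 4.3.3), variances following the intensity, and p-values were adjusted by Benjamini-Hochberg over these genes. On this scale a fold change understates low genes. A call is an adjusted p of at most 0.05. The difference was a contrast of 4 group means with 1 spread. Permutation tests were 2-sided and exact. Scripts were tested on simulated data. Named genes outside the 39 were those with the largest change each way per list (up to 2) among genes called whose groups did not overlap, with *Hdac1* and *Hdac2*, and other names were chosen after their values were seen. The members and lists were chosen with earlier results of these data known. Alternatives changed the pseudocount, filter, scaling, variance model, weights, replicate block, sex covariate, joint fit, locus matching, and each sample in turn. Correlations of the deviations of same-numbered samples (-0.00613 to 0.0465 and -0.0162 to 0.00611) overlapped those of other pairs (-0.0572 to 0.0462 and -0.0279 to 0.0417). They show no pairing but cannot exclude one, and the main fits are unpaired. Tables and figures were made with Python 3.11.15, pandas 2.3.3, numpy 2.4.6, and matplotlib 3.10.9.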

Additional observations from a re-analysis of the deposited data

Results flagged for a closer look

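In 15 of 72 groups of 4 samples of the first experiment, 1 sample stood apart by Dixon's test at the 95% level, where chance gives about 1 in 20 groups. Of these 15 values, 13 came from loci matched by position, as did 364 of all 518 member values of both experiments. The part of the matching in these values was not tested. Values standing apart upward in WT were *Ndufs8* 154.6 FPKM, *Cycs* 15.5, *Cox5a* 238.4, and *Cs* 90.2 in replicate 2, *Sdhc* 109.2 and *Cox15* 19.6 in replicate 4, and *Suclg1* 82.3 in replicate 1. Values standing apart downward in WT replicate 1 were *Ndufv2* 84.4 and *Ndufa10* 57.5 FPKM. In HDAC1cKO-HDAC2HET samples, *Ndufs3* (69.2 FPKM) and *Fh1* (72.8) were high in replicate 4, *Ndufs8* (142.9) and *Cs* (183.8) were high and *Ogdh* (56.2) low in replicate 1, and *Sdhc* (71.7) was low in replicate 3. Of the genes called among these, *Ndufs3*, *Ndufv2*, *Cycs*, *Cox5a*, *Cs*, *Ogdh*, and *Suclg1* were higher in every mutant sample than in any WT sample with these values included.

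The log2 fold changes of 9 members differed between the experiments: *Idh2* by 0.61, *Cs* by 0.54, *Uqcrfs1* by 0.41, *Cyc1* by 0.41, *Uqcrc1* by 0.35, *Ndufs1* by 0.31, *Cox5b* by 0.30, *Uqcrc2* by 0.18, and *Ogdhl* by -1.36. Genotype, restimulation, and any other difference between the 2 experiments go together, and their parts cannot be told apart. Sex, called from *Xist*, varied only within the second experiment. With a sex covariate 7 members differed, 6 of them among these 9.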

How the results depend on the processing

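In the first experiment 25 to 30 members passed the test under the alternatives other than the one that used named rows only, with 27 or 28 when 1 sample was left out, and 24 of the 28 calls held in each of the 20 settings that tested the gene. *Ndufs3* lost its call in 6 settings and *Atp5b*, *Idh3a*, and *Mdh1* in the joint fit of both experiments. With named rows only, 11 members passed, all higher, of the 13 that could be tested, and 32 of 68 other pathway genes, and the cause of the lower counts was not tested. *Sdhc* ran from -0.11 to 0.13 as single samples were left out and reversed without WT replicate 4. Median-of-ratios scaling called 30 members, including the 28. Quantile normalization lowered the log2 fold changes of *Ndufv1*, *Ndufv2*, and *Sdhd* to 0.13, 0.14, and 0.13 and kept their calls. In the second experiment 0 members passed under every setting but the joint fit, where 6 did (*Atp5b*, *Cox5b*, *Cs*, *Idh2*, *Ogdhl*, and *Uqcrfs1*) along with 6 other pathway genes (*Aco1*, *Atp5g2*, *Atp5h*, *Esrra*, *Pcx*, and *Yy1*) of 135. That fit takes 1 spread from all 14 samples and called 4.51% of all genes higher and 5.12% lower. For the difference between the experiments 5 of 9 calls held in each of the 27 settings that tested the gene, *Uqcrc2* losing its call in 14, *Ogdhl* in 8, *Cyc1* with named rows only, and *Ndufs1* with the sex covariate. Leaving out 1 sample gave 7 to 15 members, and named rows only gave 1 (*Uqcrfs1*) of 4. The replicate block, a fit that takes same-numbered samples as pairs, called 27, 0, and 8 members in the 3 comparisons. The mitochondrially encoded genes gave no value with named rows only, and the sex covariate applied to fits holding the second experiment. Depth limits *Ogdhl* and *Ppargc1a*, whose levels are low.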
